A study of Nicotiana tabacum with 12 samples.

Results

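The carrot lycopene β-cyclase line L14 was compared with wild type tobacco through the RNA of its leaves, using 3 L14 and 3 wild type libraries out of the 12 libraries of the series. The other 6 libraries came from lines L15 and L16, with 3 each, and were used to tell what changed in L14 from what changed in the DcLCYB1 lines as a whole. All plants were tobacco (Nicotiana tabacum) of the cultivar Xanthi NN. L14, L15 and L16 carry the carrot gene DcLCYB1, and the labels give their generation as T4 in one place and as T3 in another. Seeds of the lines and of the wild type were germinated on MS medium with 30 g/L sucrose and, as the labels state it for both, kanamycin at 100 mg/mL, and leaves were taken from 5-week-old plants. L14 is a single transgenic line, so an effect of DcLCYB1 and an effect of the history of this line cannot be told apart from these 6 libraries alone. The promoter that drives DcLCYB1 is not given in the sources used here.

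Lycopene β-cyclase closes the ends of the linear carotenoid lycopene into rings and so leads to β-carotene. Downstream of β-carotene lie the xanthophylls, which protect the photosynthetic apparatus from excess light, and the precursors of the plant hormones abscisic acid and strigolactone. In leaves the pathway is located in the chloroplast.

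Reads from the 3' ends of transcripts were counted on 35519 gene identifiers of the NiTAB 4.5 tobacco genome. None of these identifiers (0 of 35519) was found in the reference table used here, which is of another assembly. The study's methods report a mapping of NiTAB identifiers to Arabidopsis genes, which was not used here. Genes are therefore described by their level, size of change and scaffold, and the leaf origin of the RNA was not checked with marker genes. DcLCYB1 itself is a carrot gene and is not among the tobacco rows, so the transgene was not checked either. The libraries held between 14468170 and 22667265 gene counts (L14), or between 12887911 and 24343174 (wild type). At least 1 count was found for between 23233 and 23781 genes in L14 libraries, against between 22185 and 22773 in wild type libraries. At an equal depth of 12887911 counts, the expected number was 23612, 22787 and 22677 in the L14 libraries, against 22620, 21923 and 22049 in the wild type libraries. The groups did not overlap (exact two-sided permutation test, p = 0.1, n = 3 each), and 0.1 is the smallest p that 3 against 3 libraries allow.

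A total of 18823 genes had enough counts to be tested, and 2364 of them (12.6%) were differentially expressed genes (DEGs) in L14 at a Benjamini-Hochberg adjusted p-value under 0.05 in edgeR's quasi-likelihood test. Among them, 1245 genes (6.61% of the tested genes) were upregulated and 1119 (5.94%) were downregulated. The upregulated genes had a median log2 fold change of 1.08, which is a 2.12-fold difference, and the downregulated genes one of -0.80, which is a 1.74-fold difference. The median over all tested genes was 0.02. Without scaling factors the median of all tested genes shifted to 0.13 and the DEGs divided into 1572 upregulated and 623 downregulated genes (71.6% upregulated in place of 52.7%). No gene called in both fits changed direction.

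**Figure D1:**
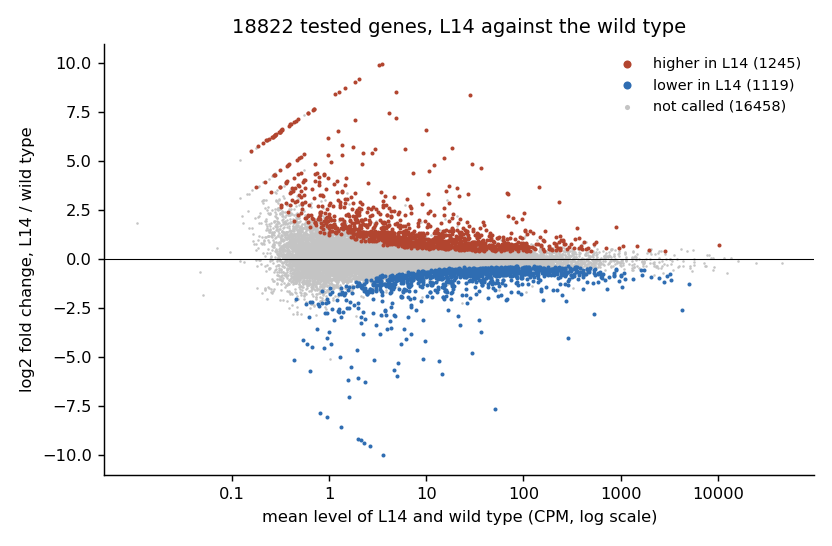
Each point is 1 of the 18822 tested genes with a count in the 6 libraries, placed by the mean of its L14 and wild type levels (CPM, counts scaled to the size of the library, on a log axis) and by its log2 fold change, with upregulated genes in red, downregulated genes in blue and genes not called in grey. The 1245 upregulated genes reach farther from 0 at low levels, while many of the 1119 downregulated genes form a dense band just under -0.5 at levels over 10 CPM.

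The number of DEGs depended on single libraries and on the spike-in RNAs in the model. Without L14 replicate 1 the count was 674 upregulated and 490 downregulated genes, and without wild type replicate 2 it was 806 and 715. Without L14 replicate 2 it was 928 and 724. The mix of synthetic spike-in RNAs also differed between L14 and the wild type. SIRV4 took 7.55%, 6.94% and 6.58% of the spike-in counts in L14 libraries, against 5.38%, 5.31% and 5.19% in wild type libraries, with no overlap. It took 7.33%, 6.98% and 6.34% in L15 and 7.77%, 7.42% and 6.50% in L16, so the other lines were also above the wild type. Of 62 spike-in sequences tested, 8 (12.9%) passed an adjusted p-value under 0.05 in edgeR's quasi-likelihood test, beside 12.6% of the tested genes. Of these 8 sequences, 7 were higher and 1 lower in L14. Between 1 and 4 sequences passed when 1 of the 6 L14 and wild type libraries was left out. With the SIRV4 and SIRV7 share as a covariate 222 upregulated and 131 downregulated genes were left, and with the first spike-in component 337 and 212. The part that this difference between libraries has in the gene results was not tested, because the covariates move together with the genotype.

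Over all levels, the upregulated genes included more large changes than the downregulated genes. The upregulated genes were also less expressed, with a median level of 7.85 CPM, as the mean of L14 and wild type, beside 28.0 CPM for the downregulated genes. Within a level the medians on the log2 scale were 3.59 and -2.77 up to 1 CPM, 1.05 and -1.09 between 3 and 10 CPM, and 0.66 and -0.65 over 30 CPM. Changes of more than 1 on the log2 scale, a difference of over 2-fold, were found in 693 upregulated genes (55.7% of them) and 371 downregulated genes (33.2%). Changes of more than 2 on the log2 scale were found in 256 and 111 genes, and changes of more than 3 in 143 and 53 genes. The most frequent size lay between 0.5 and 1, with 501 upregulated and 652 downregulated genes. Few DEGs were smaller than that, with 51 upregulated and 96 downregulated genes under 0.5. When the test itself asked for a change of more than 1 on the log2 scale, and not only for any change, 136 upregulated and 78 downregulated genes were left.

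**Figure D2:**
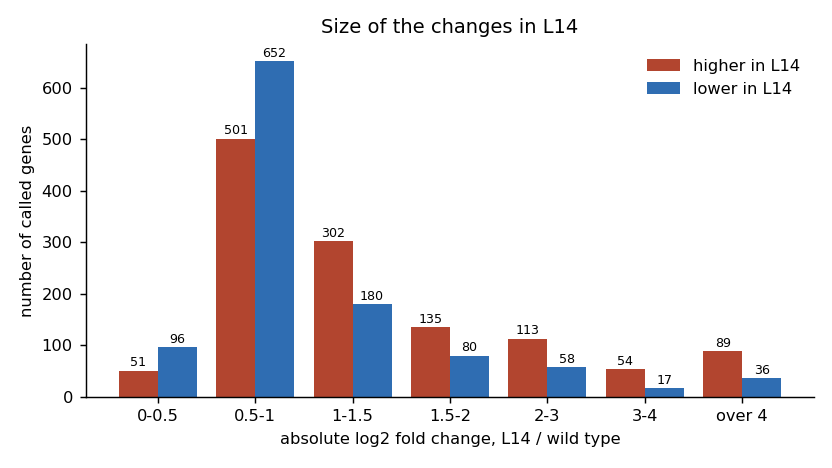
Bars give the number of DEGs in L14 by absolute log2 fold change against the wild type, with upregulated genes in red and downregulated genes in blue. Downregulated genes outnumber upregulated genes below 1, and upregulated genes outnumber downregulated genes in every class above 1, with 89 against 36 above 4.

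At the far end, the fitted size says little beyond presence or absence. Of the 89 upregulated genes with a log2 fold change above 4, 62 had fewer than 3 counts in the 3 wild type libraries together, and their fitted values depend on the small count that the model adds. Of the 36 downregulated genes beyond -4, 12 had fewer than 3 counts in L14. Over all listed genes, 85 had 0 counts in every wild type library and at least 3 counts in each L14 library, and 32 had 0 counts in every L14 library and at least 3 counts in each wild type library. Most of these genes had fewer than 10 counts in at least 1 library of the higher group. In 16 of the 85 genes every L14 library had at least 10 counts, and in 10 of the 32 genes every wild type library did. Set against a floor of 3 counts per library, the largest bound was at least 40.2-fold higher for L14 among the 85 genes and at least 40.4-fold lower among the 32. Of the first group 39 genes entered the test and 38 were called, and of the second group 8 entered and 8 were called. Over all tested genes 12.6% were called. Both groups were chosen by their counts in the same 6 libraries, so these calls follow from the choice and are no further evidence.

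Genes that were well counted in all 6 libraries gave a firmer view of the large changes. Over all 18823 tested genes, 12.6% were called and 31.8% did not overlap between L14 and wild type libraries. At least 10 counts in each library together with a call and no overlap were found for 925 upregulated and 995 downregulated genes. The 10 largest increases among them lay between 3.07 and 4.83 on the log2 scale, and the 10 largest decreases between -4.77 and -2.84.

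The largest increase of this kind was that of Nitab4.5_0001198g0330. It had 53.7, 56.2 and 61.4 CPM in L14 libraries, against 2.39, 2.12 and 1.59 CPM in wild type libraries. The groups were far apart and the L14 libraries were close to each other, with a mean of 57.1 ± 3.94 CPM in L14 and 2.03 ± 0.41 CPM in the wild type (SD, n = 3 each). The log2 fold change was 4.83 ± 0.20 (SE), with an adjusted p-value of 3.56e-10 from edgeR's quasi-likelihood test. The gene was at a similar level in the other lines, with 60.1, 60.7 and 80.4 CPM in L15 and 47.7, 55.7 and 64.0 CPM in L16.

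The largest decrease was that of Nitab4.5_0000365g0010, which had 1.63, 3.29 and 1.37 CPM in L14 libraries, against 9.16, 40.9 and 121.0 CPM in wild type libraries. The groups did not overlap, but the wild type libraries themselves differed by 13.2-fold, so the size of the decrease is poorly fixed. The log2 fold change was -4.77 ± 0.67 (SE; adjusted p = 0.000291, edgeR's quasi-likelihood test), and -3.58 without wild type replicate 3. With the first spike-in component in the model the adjusted p-value was 0.0543, and with the SIRV4 and SIRV7 share it was 0.135.

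A steadier decrease belonged to a gene on scaffold 0000571, singled out here after its values were seen because it had the smallest adjusted p-value among the well-counted downregulated genes. It had 30.4, 34.0 and 34.1 CPM in L14 libraries, against 503.6, 548.1 and 567.7 CPM in wild type libraries. Both groups were tight, and the log2 fold change was -4.04 ± 0.14 (SE; adjusted p = 9.23e-11, edgeR's quasi-likelihood test).

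Direction depended on expression level, given here as the mean of L14 and wild type, and this held for all tested genes as well as for the DEGs. The median log2 fold change of all tested genes was 0.13 up to 3 CPM, 0.02 between 3 and 30 CPM and -0.12 over 30 CPM. Among the 7613 genes tested at up to 3 CPM, 352 (4.6%) were upregulated and 107 (1.4%) downregulated. Between 3 and 30 CPM the numbers were 636 (8.4%) and 468 (6.2%) of 7581 genes. Over 30 CPM the order turned, with 257 upregulated and 544 downregulated genes, or 7.08% and 15.0% of the 3629 genes tested there. This order over 30 CPM held with RLE size factors (254 and 556) and with upper-quartile scaling (255 and 571), but it was reversed without scaling factors (375 and 301). Up to 3 CPM upregulated genes were the more frequent under every one of these scalings, with 415 and 77 without scaling factors. Without L14 replicate 1 the numbers were 146 and 211 over 30 CPM and 193 and 51 up to 3 CPM, and without wild type replicate 2 they were 162 and 345 over 30 CPM and 220 and 63 up to 3 CPM. Without L14 replicate 2, 346 genes were downregulated over 30 CPM and 65 up to 3 CPM, and without L14 replicate 3, 70 were downregulated up to 3 CPM. With the spike-in covariates the excess of downregulated genes over 30 CPM was gone, with 69 and 73 genes for the first spike-in component and 45 and 45 for the SIRV4 and SIRV7 share.

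**Figure D3:**
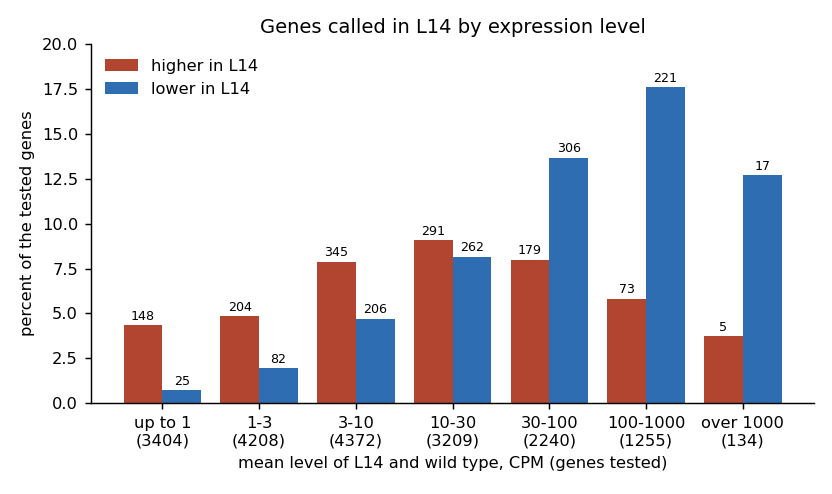
Bars give the percentage of the tested genes in each level class (CPM, mean of L14 and wild type) that were upregulated (red) or downregulated (blue) in L14, with the number of genes above each bar and the genes tested in brackets. The downregulated share was highest, at 17.6%, between 100 and 1000 CPM, while the upregulated share was highest, at 9.07%, between 10 and 30 CPM.

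The precision of a fold change rose with the level, which bears on these counts. The median standard error of the log2 fold change was 0.68 up to 1 CPM, 0.26 between 3 and 10 CPM and 0.15 between 100 and 1000 CPM. The share of tested genes that was called was 5.08% up to 1 CPM and 21.7% between 30 and 100 CPM, and the changes called in weakly expressed genes were larger. The median log2 fold change of the upregulated genes was 3.59 up to 1 CPM and 0.66 between 30 and 100 CPM, and that of the downregulated genes was -2.77 and -0.65 in the same classes.

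Because many downregulated genes were abundant, they took a large part of the RNA. The 1119 downregulated genes held 8.08%, 8.82% and 9.41% of all gene counts in L14 libraries, against 14.26%, 16.16% and 13.68% in wild type libraries. The 1245 upregulated genes held 7.68%, 6.82% and 6.48% in L14 libraries, against 3.99%, 3.73% and 3.37% in wild type libraries. Neither set overlapped between the groups, which the choice of the genes fixes in part, so these shares are a description. Among the 134 genes over 1000 CPM, 5 were upregulated and 17 downregulated, with log2 fold changes between -2.58 and 0.73. The strongest decrease in this class was to 1005, 925 and 1708 CPM in L14 libraries, against 2628, 8600 and 10560 CPM in wild type libraries. The strongest increase was to 13600, 12980 and 12070 CPM in L14 libraries, against 7473, 7871 and 7998 CPM in wild type libraries.

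The replicates of L14 were somewhat closer to each other than those of the wild type. The median within-group SD of log2 CPM was 0.26 in L14 and 0.31 in the wild type. In 5988 of the 18823 tested genes (31.8%) the 3 L14 libraries did not overlap the 3 wild type libraries, of which 3039 were higher and 2949 lower in L14. Among the DEGs, 1217 of 1245 upregulated and 1086 of 1119 downregulated genes did not overlap, which leaves 28 and 33 DEGs with overlap. The test uses the same values, so this share is a description of the DEGs. Of these 61 DEGs, 30 had no overlap once wild type replicate 1 was set aside, and between 8 and 24 once one of the other 5 libraries was. A further 3685 genes did not overlap but were not called, with a median absolute log2 fold change of 0.52.

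The distance between groups was often small. In the upregulated genes without overlap, the lowest L14 library was a median of 1.44-fold above the highest wild type library, and in the downregulated genes the lowest wild type library was a median of 1.32-fold above the highest L14 library. A gap of more than 2-fold was found in 282 upregulated and 134 downregulated genes. When each of the 6 libraries was left out in turn, 531 upregulated (42.7%) and 401 downregulated genes (35.8%) were called in all 6 fits. Those genes changed more, with a median absolute log2 fold change of 1.38 for the upregulated and 1.08 for the downregulated genes, than the other DEGs, with 0.90 and 0.67. Their expression level was not a mark of this stability, since between 36.4% and 43.4% of the DEGs of each level class were called in all 6 fits. No DEG lost in these fits was called in the opposite direction.

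Of the 10 largest increases among the well-counted genes, 2 lay on the same scaffold, 0001198. The identifiers give a scaffold and a running number, which was taken as the order of genes on it. On scaffold 0001198, 13 of 20 tested genes (65%) were upregulated in L14 and 0 were downregulated, with a median log2 fold change of 1.40 over the 20 genes. By DESeq2's Wald test the numbers were also 13 and 0, while 1 gene of the scaffold was downregulated without a filter on low counts, with the replicate block, with either spike-in covariate and without wild type replicate 2. At an unadjusted p under 0.05, 2 genes of the scaffold were lower in L14, with estimates of -0.56 and -1.25. This was the highest upregulated share among the 1405 scaffolds with at least 5 tested genes, where the share over all tested genes was 6.61%. In the next scaffolds by that share, 0003884 and 0004987, 3 of 5 tested genes each were upregulated. No scaffold of this size had more than 42.9% downregulated genes. The scaffold was singled out after its values were seen.

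The increases on scaffold 0001198 were of very different size. The 13 log2 fold changes ranged from 0.53 to 8.50, and 7 exceeded 2. The seventh tested gene had 588, 619 and 856 counts in L14 libraries, against 6, 14 and 15 counts in wild type libraries, with a log2 fold change of 5.67 ± 0.24 (SE). The fourteenth had 140, 177 and 251 counts in L14 libraries, against 0, 1 and 0 counts in wild type libraries, so that it was close to absent in the wild type and its fitted value of 8.50 depends on the added count. The fifteenth, next to it, had 1309, 1522 and 2159 counts in L14 libraries, against 830, 997 and 1101 in wild type libraries, a log2 fold change of only 0.53 ± 0.14 (SE). Strongly and weakly changed genes thus stood side by side. Nitab4.5_0001198g0330, described above, is the nineteenth. The 7 genes that were not called had estimates between -1.25 and 2.33, of which 4 were positive and 3 negative.

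**Figure D4:**
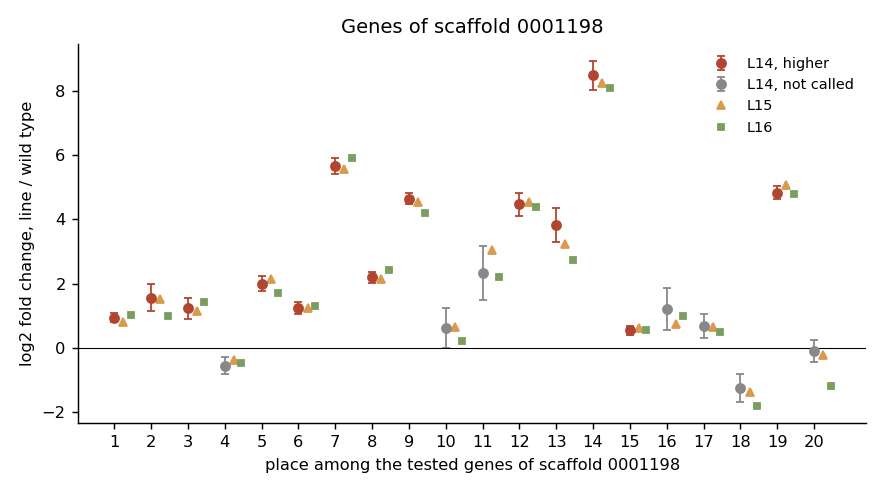
Circles with bars give the log2 fold change of L14 against the wild type with its SE for the 20 tested genes of scaffold 0001198 in the order of their identifiers, red where called and grey where not, with L15 (triangles) and L16 (squares) beside them without error bars. The 13 red circles lie between 0.53 and 8.50, and the points of the 3 lines lie close together at most places.

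In the other lines the median over the same 20 genes was 1.39 in L15 and 1.36 in L16, beside 1.40 in L14. These comparisons share the wild type libraries, so the values are set side by side and are not independent. The comparison of L14 with the mean of L15 and L16 takes no wild type level into the difference. Its filter, scaling and spread were still estimated from all 12 libraries, the wild type among them. In this comparison the 20 genes differed by between -0.31 and 0.86 on the log2 scale. The smallest adjusted p-value among them was 0.411 in edgeR's quasi-likelihood test (0.0225 unadjusted).

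Neighbouring tested genes were also counted on the other scaffolds, as a description with no test. Over the 15808 pairs outside scaffold 0001198, the gene after an upregulated gene was also upregulated in 8.50% of cases, beside 6.46% of all following genes. For downregulated genes the shares were 7.01% and 5.85%. Over all scaffolds both genes were upregulated in 96 pairs, of which scaffold 0001198 held 9.

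The question which changes were particular to L14 was addressed in 2 steps. First, 241 DEGs of L14 were called neither in L15 nor in L16, which is 1.28% of the tested genes. They comprised 96 upregulated and 145 downregulated genes, or 7.71% and 13.0% of the L14 DEGs of that direction. Most lay close to the threshold. Their median adjusted p-value in L14 was 0.032 in both directions, in edgeR's quasi-likelihood test, and in 47 of the 96 and 76 of the 145 genes the smaller adjusted p-value of L15 and L16 was under 0.1. For the 96 genes the median log2 fold changes were 0.98 (L14), 0.55 (L15) and 0.50 (L16), and for the 145 genes they were -0.68 (L14), -0.41 (L15) and -0.36 (L16). The larger L14 value follows in part from the choice of the genes. When each of the 6 L14 and wild type libraries was left out in turn, 9 of the 96 and 12 of the 145 genes were called against the wild type in all 6 fits. The numbers were 37 and 33 genes without L14 replicate 1 and 53 and 42 without L14 replicate 2. The upregulated number was 164 without L16 replicate 1 and 164 without L16 replicate 2. The downregulated number was 94, 86 and 93 without wild type replicate 1, 2 and 3.

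Second, the difference between lines was tested. L14 differed from the mean of L15 and L16 in 10 of the 18823 tested genes (0.0531%), with 4 higher and 6 lower in L14 (edgeR's quasi-likelihood test, adjusted p-value under 0.05), and in 1812 genes at an unadjusted p under 0.05. DESeq2's Wald test gave 45 higher and 111 lower genes. The 241 genes called in L14 alone were chosen on L14, L15 and L16 values that also enter edgeR's test of this difference. Their results in it thus follow in part from the choice. Of these 241 genes, 84 had an unadjusted p under 0.05 in it, and 2 passed it, 1 in each direction. With the genes called in L14 alone drawn anew in each fit, this number was 15 with DESeq2, 22 without a filter on low counts, 7 with the replicate block, 1 with the SIRV4 and SIRV7 share and 0 with a minimum log2 fold change of 1. It was 1 without L14 replicate 1 or 2, 4 without L14 replicate 3 and 6 without wild type replicate 3. L14 differed from L15 in 3 genes (0.0159%) and from L16 in 326 genes (1.73%). DESeq2 gave 13 genes for L15 and 748 for L16, and without a filter on low counts there were 56 and 913. A minimum log2 fold change of 1 left 1 and 17, and for L16 the number was 677 with the replicate block, 575 with the first spike-in component and 599 with the SIRV4 and SIRV7 share. Of the 326 genes, 216 were DEGs of L16 and not of L14, and 14 were DEGs of L14 and not of L16. The number of genes that differed between L14 and the mean of L15 and L16 moved in both directions with single libraries. It was 1 higher and 1 lower gene without L14 replicate 1, 2 and 1 without L14 replicate 2, 11 and 11 without wild type replicate 1, and 18 and 42 without wild type replicate 3. Without wild type replicate 2 the numbers were 7 and 10. The lower genes numbered 10 without L14 replicate 3 and 13 without L15 replicate 2, and the higher genes 1 without L16 replicate 1 and 11 without L16 replicate 3. The 326 genes became 86 without L14 replicate 2, 167 without L14 replicate 3, 186 without L16 replicate 1, 114 without L16 replicate 2 and 542 without wild type replicate 3, while the 3 genes became 1 without any one of the L14 libraries or L15 replicate 2 and 6 without L16 replicate 2.

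Nitab4.5_0000922g0050 was upregulated in L14 and not called in the other lines. It had 8.46, 9.75 and 7.96 CPM in L14 libraries, 2.87, 2.37 and 1.58 CPM in L15 and 1.57, 1.76 and 1.79 CPM in L16, against 2.23, 1.40 and 1.35 CPM in wild type libraries. Every L14 library was far above every other library of the series. The log2 fold change was 2.41 ± 0.28 (SE) against the wild type, with an adjusted p-value of 4.3e-05, and 2.14 ± 0.22 against the mean of L15 and L16, with an adjusted p-value of 0.000359, both from edgeR's quasi-likelihood test. Against a minimum change of 1 on the log2 scale, the adjusted p-value for the difference from the other lines was 0.0713.

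Nitab4.5_0000131g0190 was downregulated in L14 and not called in the other lines. It had 0.88, 1.30 and 1.46 CPM in L14 libraries, 6.25, 4.23 and 4.97 CPM in L15 and 4.94, 6.08 and 3.25 CPM in L16, against 3.54, 3.77 and 3.08 CPM in wild type libraries. The L14 libraries were the lowest of the 12. With 14, 25 and 33 counts in L14 this is a weakly expressed gene, and the log2 fold change was -1.49 ± 0.30 (SE) against the wild type (adjusted p = 0.00488) and -2.01 ± 0.27 against the mean of L15 and L16 (adjusted p = 0.0108), from edgeR's quasi-likelihood test. The second call was lost without L14 replicate 1 (adjusted p = 0.106) and without L14 replicate 2 (adjusted p = 0.0711), and the first once the SIRV4 and SIRV7 share was in the model (adjusted p = 0.0719). Both were lost in edgeR's test against a minimum change of 1 on the log2 scale. There the adjusted p-value was 0.601 against the wild type and 0.983 against the mean of L15 and L16.

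**Figure D5:**
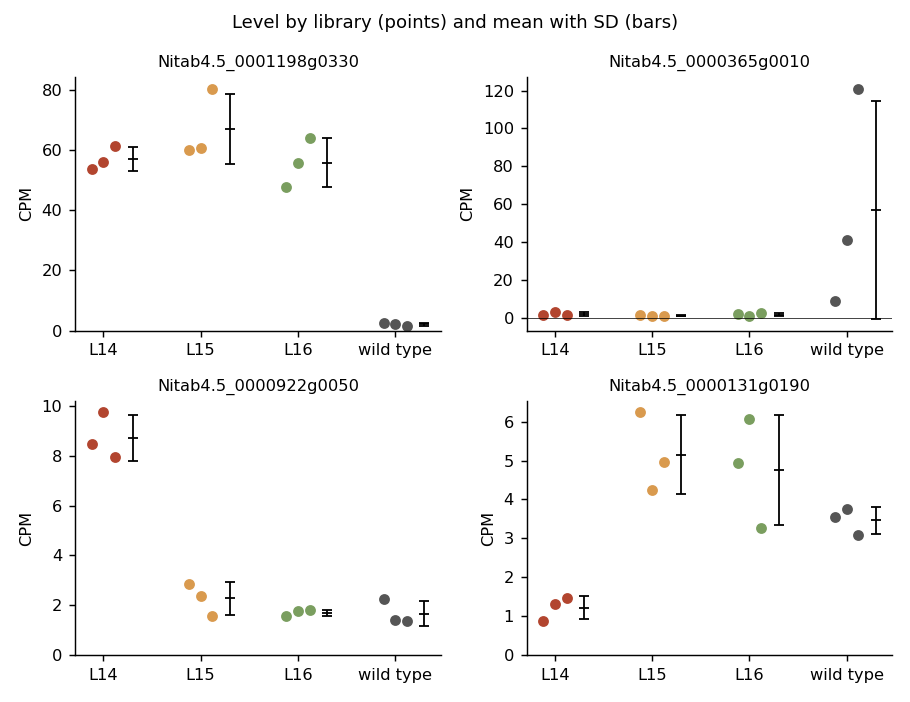
Points give the level in CPM of the 4 named genes in each library of L14, L15, L16 and the wild type, with the mean and SD (n = 3) beside them. In the upper panels L14 stands with L15 and L16 and apart from the wild type, and in the lower panels the 3 L14 libraries stand apart from the other 9.

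The remaining 8 of the 10 genes did not mark a change of L14 away from both the wild type and the other lines. In one of them no read was counted in any L14 or wild type library, while L15 had 78, 193 and 83 counts and L16 had 136, 194 and 131 counts. In 4 more, L14 was not called against the wild type (adjusted p-values between 0.0511 and 0.912, edgeR's quasi-likelihood test) while L16 was. By the same test L15 was also called in 3 of these 4, in the direction of L16 (adjusted p-values 0.00119, 0.0180 and 0.0126). In the other gene L15 was not called (adjusted p = 0.265). In 2 genes L14 was called in the direction of the other lines but with a smaller change: one had log2 fold changes of 0.52 (L14), 0.84 (L15) and 1.96 (L16), and the other had -1.58 in L14 and -2.84 in L15, with a still larger decrease in L16. The last gene was lower than in the wild type in L14 (-1.31) and L15 (-1.16) and higher in L16 (0.92). L16 thus set part of these differences, and only 3 of the 10 genes also differed between L14 and L15.

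The values of the L14 DEGs in the other lines are set side by side. The 1245 upregulated genes had median log2 fold changes of 1.08 (L14), 1.04 (L15) and 1.21 (L16), and the 1119 downregulated genes had -0.80 (L14), -0.73 (L15) and -0.87 (L16). All of these values use the same 3 wild type libraries, whose SIRV4 share lay below that of every library of the lines. In the test of L14 against the mean of L15 and L16, 2 of the 1245 and 3 of the 1119 genes passed the threshold. Over all 18823 tested genes 10 did (0.0531%). Against L16 alone, 49 of the 1245 and 42 of the 1119 genes differed, beside 326 of all tested genes (1.73%). The DEGs were chosen on L14 values that enter both comparisons, so these counts are a description. Of the downregulated genes, 4 were upregulated in L16.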

How the data were processed

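RNA of leaves was made into QuantSeq FWD 3' libraries from 500 ng total RNA each and sequenced in a single run. Per the study's methods, reads were mapped with STAR to NiTAB 4.5. The program and strand setting used for counting are not given in the sources used here. The authors deposited whole-number counts per gene and library, not normalized, with 35519 NiTAB rows, 99 spike-in rows (92 ERCC and 7 SIRV) and 5 summary rows. Only NiTAB rows entered the gene tests. Alignments that were not unique stood in a summary row of their own and made up 19.3% to 21.3% of the listed reads in the 6 libraries, so near-identical gene copies of this tetraploid genome can lose reads. Reads outside genes made up 34.5%, 34.9% and 35.4% in L14 and 38.1%, 37.5% and 35.6% in the wild type. The labels call the replicates biological. In each pair of replicates the libraries differed beyond counting noise.

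From the counts, edgeR 4.0.16 in R 4.3.3 was used with TMM scaling, filterByExpr (minimum count 10) and the quasi-likelihood test fitted to the 12 libraries together with a term for genotype and no other. The methods name DESeq2, which was used here as an alternative (version 1.42.0). The standard error of a log2 fold change was obtained from its size and the F statistic. A library's 3-count floor lay between 0.132 and 0.207 CPM in L14 and between 0.123 and 0.233 CPM in the wild type, for counting error only. Genes were named by a rule: the largest increase and decrease among DEGs with at least 10 counts in each of the 6 libraries and no overlap, and, among DEGs called neither in L15 nor in L16, the one in each direction with the smallest p against their mean. The comparison, the rule and the lists were chosen with earlier results of these data known. The test was checked on simulated data. Alternatives were DESeq2, 3 other scalings, 2 other filters, the replicate block, a minimum change, leaving out the 20 most-counted genes, 2 spike-in covariates, 6 libraries alone, and each library left out. Identifiers were compared with a RefSeq gene table of another assembly, and 0 of 35519 matched, so no names or sequences are given.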

Additional observations from a re-analysis of the deposited data

Results flagged for a closer look

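The effect of L14 against the wild type differed from the mean effect of L15 and L16 in 10 genes by the test of the difference itself (edgeR's quasi-likelihood test, adjusted p-value under 0.05). By the same test, the effects of L14 and L16 differed in 326 genes and those of L14 and L15 in 3 genes. Over the alternatives that used all 12 libraries, these numbers ranged between 17 and 913 genes for L16 and between 1 and 56 for L15.

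The spike-in RNAs, which enter none of the gene tests, differed between L14 and the wild type in 8 of 62 sequences (adjusted p-value under 0.05, edgeR's quasi-likelihood test). This was 12.9% of the sequences, beside 12.6% of the tested genes. At an unadjusted p under 0.05, 24 sequences differed. SIRV7 took 2.78%, 2.20% and 2.07% of the spike-in counts in L14 libraries, against 1.74%, 1.59% and 1.67% in wild type libraries. In the other lines it took 2.52%, 2.55% and 2.16% (L15) and 2.85%, 2.57% and 1.80% (L16), also above the wild type. The largest change among the 8 sequences was 0.82 on the log2 scale. With any 1 of the 6 L14 and wild type libraries left out, between 1 and 4 sequences were called. With 1 of the other libraries left out the number was 8 without L16 replicate 1, 19 without L16 replicate 3 and 4 without any other of them.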

How the results depend on the processing

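No gene called in L14 was called in the opposite direction under any alternative. The numbers of DEGs moved by more than 1.5 times without scaling factors (623 downregulated), with a minimum log2 fold change of 1 (136 upregulated, 78 downregulated), with the first spike-in component (337, 212) and with the share of SIRV4 and SIRV7 (222, 131). Genes called in L14 alone numbered 163 upregulated and 59 downregulated without scaling factors, 159 upregulated without a filter on low counts, 9 and 3 with the minimum fold change, 19 and 17 with the spike-in component, and 11 and 10 with the SIRV share. Genes higher and lower in L14 than in the mean of L15 and L16 numbered 45 and 111 with DESeq2, 151 and 231 without a filter, 31 and 65 with the replicate block, 0 and 1 with the minimum fold change, 13 and 24 with the spike-in component, and 13 and 22 with the SIRV share. The cause was not tested. With each library left out in turn, the ranges were 674 to 1409 upregulated and 490 to 1324 downregulated genes, 37 to 164 and 33 to 211 called in L14 alone, 1 to 18 and 1 to 42 against the mean of L15 and L16, 1 to 19 spike-in sequences, and -2.88 to -1.63 percentage points for the difference between L14 and the wild type in reads outside genes (-2.15 with all 6, exact permutation p = 0.1; -2.71 as a share of reads on or outside genes).

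The replicate block gave 1595 upregulated and 1543 downregulated genes. The numbers were not taken as pairs because the methods give no block. Equal replicate numbers of L14 and the wild type correlated at 0.109, 0.0368 and -0.0194 in their deviations, and unequal numbers at between -0.106 and 0.0766. Precision was limited by 3 libraries per genotype and, for genes of a few CPM, by counts.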

Other observations

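Among the 10 largest increases of the well-counted genes, 1 gene varied widely within every genotype. It had 570, 1225 and 439 counts in L14 libraries, 61, 22 and 12 in L15 and 282, 20 and 177 in L16, against 13, 126 and 79 in wild type libraries. Its log2 fold change against the wild type was 3.23 ± 0.74 (SE; adjusted p = 0.0102) in L14, and its difference of 3.27 from the mean of L15 and L16 had an adjusted p-value of 0.0668, both from edgeR's quasi-likelihood test.

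A pair of these 10 genes, on scaffolds 0002465 and 0002564, had counts close to each other in the L14 libraries. The gene on scaffold 0002465 had 1831, 2421 and 2960 counts in L14 libraries, against 211, 174 and 209 in wild type libraries. The gene on scaffold 0002564 had 1832, 2417 and 3161 counts in L14 libraries, against 191, 238 and 195 in wild type libraries. The gap between the genes was widest in wild type replicate 2, with 174 and 238 counts. Whether they are near-identical copies that share reads was not tested. These genes were chosen after their values were seen.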
